A study of Mus musculus with 68 samples.

Results

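Atf4 and 9 further genes of the integrated stress response (Atf5, Ddit3, Ddit4, Trib3, Chac1, Asns, Sesn2, Eif2ak3 and Ppp1r15a) were followed through the mouse prefrontal cortex after lithium, fluoxetine or vehicle. The 10 genes were taken by symbol from the 18088 genes of the deposited table, and each was present once. RNA came from 68 C57BL/6J mice killed at postnatal day 25, 1 library per animal label. The animals were wild type (WT) or labelled heterozygous for Adnp (HT), and the drug reached the pups from day 3 to day 24 in their mother's milk. The labels give neither the drug doses nor the nature of the Adnp allele. Vehicle groups held 8 female and 8 male HT and 8 female and 7 male WT libraries. Lithium groups held 4 female and 5 male HT and 5 female and 3 male WT libraries, and each of the 4 fluoxetine groups held 5.

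The integrated stress response is a shared route by which cells answer amino acid shortage, misfolded protein in the endoplasmic reticulum, mitochondrial damage and viral RNA. Kinases such as PERK, the product of Eif2ak3, phosphorylate the translation factor eIF2, which lowers protein synthesis in general while the Atf4 message is translated better. The transcription factor ATF4 then turns on genes for amino acid supply, redox balance and, with CHOP (the product of Ddit3), cell death and feedback. In brain the pathway is known for its part in synaptic plasticity and memory. Because Atf4 is controlled largely at translation, the RNA levels below do not measure ATF4 protein or eIF2 phosphorylation.

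ATF4 binds composite sites of the form TGATGNAA, and CREB-family factors bind the element TGACGTCA. All 10 members matched a RefSeq promoter (GRCm38.p6, 250 bases before to 50 after the start), and both motifs were searched on both strands. The composite site was found in 3.97% and the CREB element in 1.79% of all 32851 promoter windows. The sequences below are shown because Chac1, Asns and Ppp1r15a held a match before their start, in capitals, while Atf4 and Sesn2, whose RNA stood out under lithium, held neither motif in the window. Each is a run of 120 bases, 5′ to 3′ on the gene's strand.
Chac1 (chr2:119351012-119351131, plus strand), composite site beginning 193 bases before the start and read on the opposite strand: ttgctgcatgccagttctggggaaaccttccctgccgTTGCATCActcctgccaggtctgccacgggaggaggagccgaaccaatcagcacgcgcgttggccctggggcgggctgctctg
Asns (chr6:7693210-7693329, minus strand), composite site beginning 23 bases before the start: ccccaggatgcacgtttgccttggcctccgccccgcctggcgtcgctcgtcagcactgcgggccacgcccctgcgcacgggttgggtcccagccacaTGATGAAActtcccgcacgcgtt
Ppp1r15a (chr7:45526269-45526388, minus strand), CREB element beginning 12 bases before the start: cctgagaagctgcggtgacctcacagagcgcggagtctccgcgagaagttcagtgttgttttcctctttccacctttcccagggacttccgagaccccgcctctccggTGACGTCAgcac
Atf4 (chr15:80255064-80255183, plus strand), no match: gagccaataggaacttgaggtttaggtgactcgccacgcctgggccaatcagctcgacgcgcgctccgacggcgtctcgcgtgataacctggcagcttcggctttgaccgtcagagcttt
Sesn2 (chr4:132510457-132510576, minus strand), no match: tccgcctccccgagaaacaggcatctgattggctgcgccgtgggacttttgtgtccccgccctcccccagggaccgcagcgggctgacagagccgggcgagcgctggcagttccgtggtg
Trib3 held a composite match after its start. A match is a stretch of letters and does not show that a factor was bound in this tissue.

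By pseudogene levels the libraries fell into 3 sets. No label names the sets, and they run across the drug comparison. Set 2 (28 libraries) held all 17 lithium libraries with 6 HT and 5 WT vehicle libraries, set 1 (28) held all fluoxetine libraries with 8 HT vehicle libraries, and set 3 (12) held 10 WT and 2 HT vehicle libraries. In all 4 vehicle groups, the libraries in set 2 were those with replicate numbers 6 to 8, or 6 and 7 in WT males, and numbers 1 to 5 lay outside it. Each lithium comparison is therefore given against all vehicle libraries (pooled) and against the vehicle libraries of set 2. Adnp RNA was not lower in libraries labelled HT: the log2 difference, HT minus WT, was 0.32 under vehicle pooled (SE 0.07, limma adjusted p 0.0021), but 0.19 within set 2 (SE 0.10, adjusted p 0.88), where it did not pass. It was 0.32 under fluoxetine (adjusted p 0.039 pooled and 0.0042 by set) and 0.25 under lithium, short of the threshold (0.19 and 0.059). The Adnp level therefore does not check the genotype labels, and HT and WT below mean those labels. Recovered reads ranged from 22.4M to 37.5M per library (M for mega), with a median of 30.7M. Marker genes of cortex were abundant, with excitatory neuron markers at 54189 to 83483 normalized counts, but neighbouring tissue varied: striatal markers ranged from 5499 to 24528 and olfactory bulb markers from 599 to 30757.

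Levels between genes were compared per kilobase of exon. Atf4 was the most abundant member at a mean of 1361 normalized counts per kilobase over the 68 libraries, followed by Asns at 827 and Ddit4 at 661. Atf5 (223), Ddit3 (218), Ppp1r15a (160), Eif2ak3 (133), Sesn2 (119) and Chac1 (116) formed a middle group. Over the libraries Atf4 ranged from 1137 to 1911 and Asns from 634 to 1030 per kilobase, so these ranges did not overlap. The ranges of Asns and Ddit4 (339 to 945) overlapped, as did those of Atf5 (171 to 288) and Ddit3 (162 to 306), and those of Sesn2 (93.4 to 170) and Chac1 (68.1 to 153). Trib3, a pseudokinase that restrains the pathway, was close to the floor at 0 to 21.4 normalized counts per library, and its differences carry wide errors.

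Atf4 and Sesn2 rose with lithium within set 2, and 7 of the 10 members rose in the pooled comparison. Pooled over both genotypes, Atf4, Ddit3, Ddit4, Chac1, Asns, Sesn2 and Eif2ak3 rose, by 0.07 to 0.33 on the log2 scale, and none fell. The pooled comparison called 35.9% of all 17922 genes tested, 19.0% higher and the rest lower, and the members' count is to be read against these shares. Within set 2 it called 1.80% of genes, 1.25% higher, and 2 of the 10 members rose. The median log2 difference of the members was 0.19 pooled and 0.08 within set 2, against medians of -0.01 and 0.00 over all genes. In bulk tissue, fewer cells of a type and less RNA per cell cannot be told apart.

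Atf4 encodes the transcription factor at the centre of the pathway (chromosome 15, 80255184 to 80257541, GRCm38, plus strand). In the WT lithium females it stood at 3515, 3057, 3373, 3775 and 4506 normalized counts, and in the WT lithium males at 4268, 4455 and 3624. The WT vehicle libraries of set 2 stood at 2840, 2779 and 2681 in females and 3016 and 2820 in males. All 8 WT lithium libraries lay above the highest of the 5 vehicle libraries, a pattern shared by 0.580% of genes tested. In HT the lithium libraries stood at 3074, 3174, 2771 and 3201 in females and 3662, 3197, 3379, 3367 and 3249 in males, and the 6 vehicle libraries of set 2 between 2747 and 2941. Of the 9 HT lithium libraries 8 lay above every one of those 6, and the exception was a female at 2771. At least 8 of the 9 HT lithium libraries lay above all 6 vehicle libraries for 1.22% of genes tested.

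**Figure D1:**
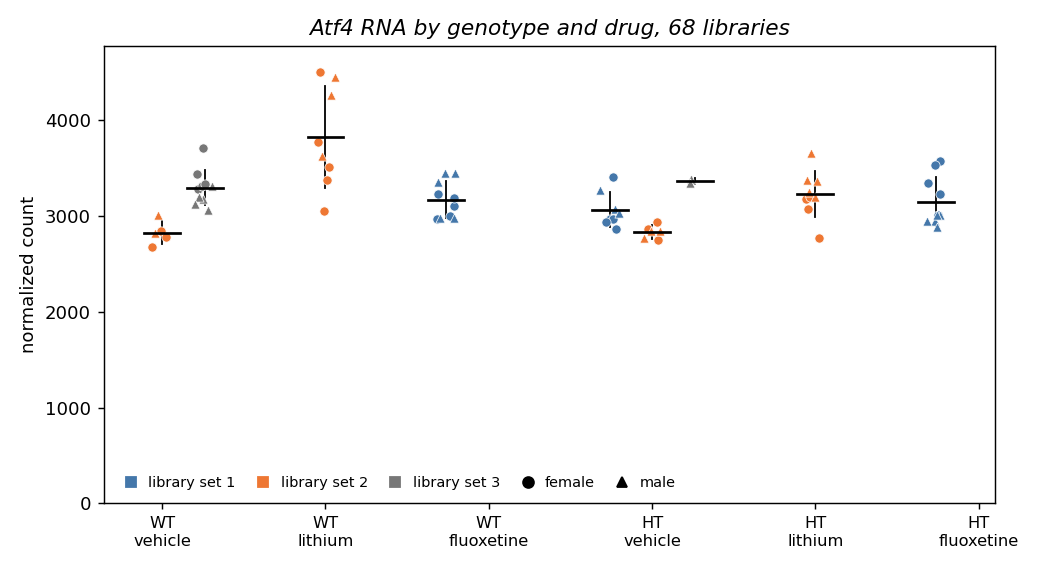
Atf4 normalized counts (vertical axis, from 0) in the 68 libraries by genotype and drug (horizontal axis), coloured by library set, with circles for females and triangles for males; black bars are means and vertical lines SDs of each set in a group. WT lithium libraries reach 4506, and the vehicle libraries of set 2 lie at or below 3016, lower than those of set 3.

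Within set 2, Atf4 rose by 0.31 on the log2 scale over both genotypes (SE 0.04, limma adjusted p 5.0e-07), and it had the smallest p of all 17922 genes. edgeR on the recovered reads also placed it first (adjusted p 5.8e-07). The rise in WT was 0.44 (SE 0.06, adjusted p 1.8e-06), a 1.36-fold difference. In HT the difference was 0.18 (SE 0.05), with an unadjusted p of 0.00083 and an adjusted p of 0.13, so it did not pass. The size depended on the vehicle libraries used: the 10 WT vehicle libraries of set 3 stood between 3065 and 3716, overlapping the lithium range, and the pooled rise in WT was 0.30 (adjusted p 2.0e-05). Pooled in each sex alone, the WT difference was 0.40 in males (adjusted p 5.0e-04) and 0.20 in females, where it did not pass (adjusted p 0.070). Within set 2 the WT female means were 3645 with lithium and 2766 with vehicle, and the WT male means 4115 and 2918. In set 3 the WT vehicle means were 3419 in females and 3177 in males, so the pooled value by sex also depends on the sets. Leaving out any 1 of the 28 libraries of set 2 kept the WT difference between 0.40 and 0.48, and it passed each time.

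Among the 3 WT lithium libraries with the highest Atf4, 2 also stood apart in another reading. The WT lithium female at 4506 had a summed choroid plexus and meningeal level of 7278, against 1423 to 2106 in the other 7 WT lithium libraries, and without it the WT rise was 0.40 (adjusted p 1.1e-06). The WT lithium male at 4268 had the highest sum of glucocorticoid-responsive genes, 29857, and without it the rise was 0.42 (adjusted p 3.0e-05). The WT lithium male at 4455, the second highest for Atf4, had the lowest choroid plexus and meningeal sum (1423) and the lowest immediate early sum (22047) of the 8 WT lithium libraries, and without it the rise was 0.41 (adjusted p 5.2e-05). Its glucocorticoid-responsive sum was 25998, against 25894 in the WT lithium male at 3624 and 23344 to 24496 in the WT lithium females. The part of these sums in the Atf4 values was not tested. Striatal markers were higher in all 9 of 9 genes in HT (median log2 difference 0.54) and lower in 9 of 9 in WT (-0.40) under lithium within set 2, and olfactory bulb markers moved the other way in 8 of 8 genes each (-0.77 in HT and 0.67 in WT). No marker of these 2 lists passed the test, and their part in the Atf4 values was not tested.

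Sesn2 encodes sestrin 2, a leucine-binding protein that restrains mTORC1 and is a target of ATF4 and p53 (chromosome 4, 132492032 to 132510501, minus strand). WT lithium libraries stood at 439, 451, 468, 494 and 483 in females and 591, 489 and 464 in males. The WT vehicle libraries of set 2 stood at 408, 377, 373, 404 and 396, so all 8 lithium libraries were again above all 5 vehicle libraries. Sesn2 rose by 0.31 in WT within set 2 (SE 0.07, limma adjusted p 0.020) and by 0.23 over both genotypes (SE 0.05, adjusted p 0.0036). In HT the 9 lithium libraries ran from 378 to 525 (median 441) and the 6 vehicle libraries from 359 to 460, and the difference of 0.15 did not pass (adjusted p 0.34). The WT call was lost without WT lithium male 1 (0.26, adjusted p 0.084), the library at 591. It was also lost without WT vehicle female 7 (0.056), female 8 (0.0505), male 6 (0.093) or male 7 (0.14), all adjusted p. The call over both genotypes passed whichever library was left out. Gm12981, which is outside the deposited table, overlaps Sesn2 over 6089 bases on the same strand, and how reads there were assigned was not given in the sources used here.

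By genotype, 8 of the 10 members rose in WT in the pooled comparison (36.1% of genes called, 18.6% higher) and 2 within set 2 (0.664% called, 0.430% higher). The 8 were Atf4, Atf5, Ddit3, Ddit4, Chac1, Asns, Sesn2 and Eif2ak3, and the Asns call was lost on leaving out any of 12 single libraries (adjusted p up to 0.20). In HT no member passed in limma, pooled (1.52% of genes called) or within set 2 (0.162%), and edgeR called none in either fit. At an unadjusted p under 0.05 there was 1 pooled, Sesn2, against 16.9% of all genes. Within set 2 there were 3, Atf4, Atf5 and Sesn2, against 10.7% of all genes. The plot of lithium effects shows how far the pooled WT values lay from those of set 2.

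**Figure D2:**
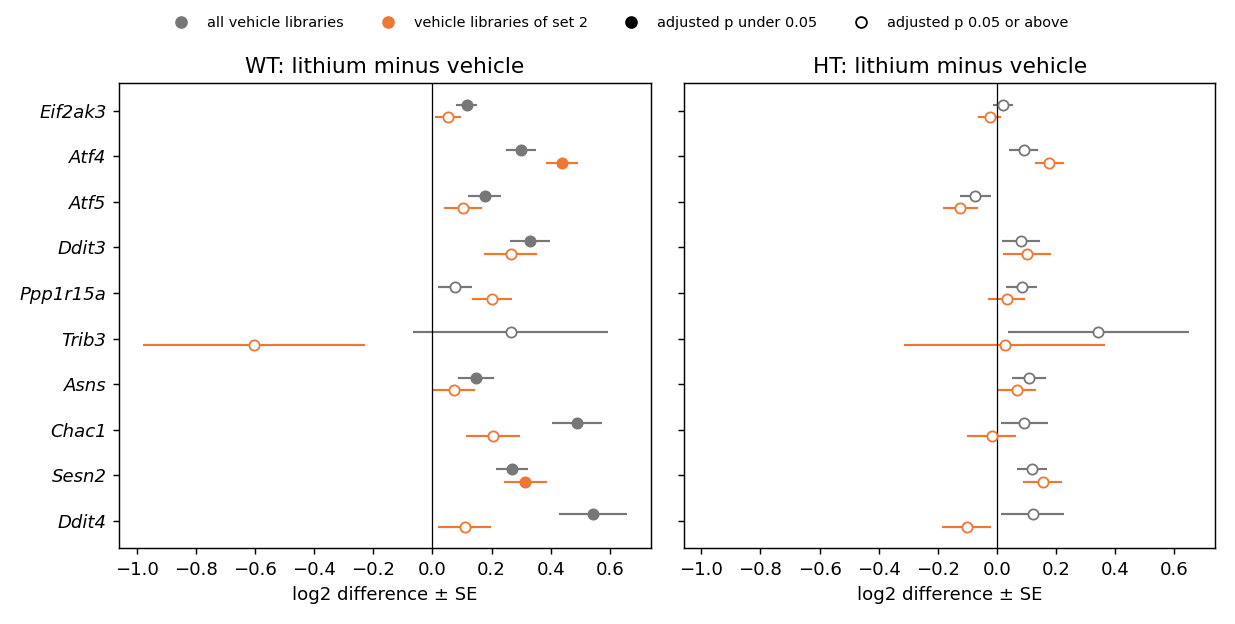
Log2 difference, lithium minus vehicle, with SE (horizontal axis) for the 10 members (vertical axis) in WT and HT, against all vehicle libraries (grey) or those of set 2 (orange); filled points have a limma adjusted p under 0.05. Within set 2 Atf4 at 0.44 and Sesn2 at 0.31 in WT are the filled points, and no HT point is filled.

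The kinase gene and Atf5 did not pass within set 2. Eif2ak3, which encodes the endoplasmic reticulum kinase PERK, rose by 0.07 in the pooled comparison (adjusted p 0.029), a call lost without HT lithium female 2 (adjusted p 0.070) or WT lithium female 4 (0.0501), and within set 2 its difference was 0.01 (adjusted p 0.89). Atf5, an ATF4-like factor translated by the same mechanism, stood at 420 to 485 in WT lithium and 385 to 452 in WT vehicle of set 2, overlapping ranges. In HT 6 of 9 lithium libraries for Atf5 lay below the lowest of 6 vehicle libraries, and the difference of -0.12 did not pass within set 2 (adjusted p 0.42). Atf5 overlaps Nup62 and Il4i1 on the opposite strand, and whether reads were counted by strand is not given in the sources used here, so its level is uncertain.

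Ddit3 encodes CHOP, the partner through which prolonged stress turns towards cell death. WT lithium libraries stood at 379 to 524 (median 433) and the 5 WT vehicle libraries of set 2 at 348 to 387, overlapping ranges. Ddit3 rose pooled over both genotypes (0.21, SE 0.05, adjusted p 6.2e-04), but within set 2 the difference of 0.18 did not pass (adjusted p 0.10). It passed within set 2 without HT vehicle male 7 (0.22, adjusted p 0.038) or without WT lithium male 3 (0.21, adjusted p 0.044). A second gene record named Ddit3, absent from the 18088 genes, lies on the same strand over 2925 bases, and 68 bases overlap Mars on the opposite strand, so the Ddit3 level is uncertain.

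The feedback members showed no call within set 2. Ppp1r15a encodes GADD34, which brings a phosphatase to eIF2 and ends the response. It stood at 449 to 570 in WT lithium and 405 to 476 in WT vehicle of set 2, overlapping ranges. Its WT difference of 0.20 had an unadjusted p of 0.0043 and an adjusted p of 0.16. In the 10 WT vehicle libraries of set 3 Ppp1r15a reached 601, and pooled over both genotypes its difference was 0.08 (adjusted p 0.094). That value passed without HT lithium female 3, WT vehicle female 5 or WT vehicle male 3 (adjusted p 0.042, 0.048 and 0.049). Those set 3 libraries also had higher sums of 14 immediate early genes (30422 to 44487, against 14878 to 28276 in WT vehicle of set 2), and the part of this in the Ppp1r15a level was not tested. Trib3 differed by 0.30 pooled and by -0.29 within set 2, with SEs of 0.22 and 0.25, and passed in neither.

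Among the metabolic targets, the pooled calls did not hold within set 2. Chac1 encodes an enzyme that degrades glutathione, and in WT its lithium libraries stood at 209 to 251 and its vehicle libraries at 181 to 221 in set 2 but 112 to 176 in set 3. The pooled WT rise of 0.49 (SE 0.08, limma adjusted p 2.2e-05) became a difference of 0.20 (SE 0.09, adjusted p 0.35). Ddit4, which encodes the mTORC1 inhibitor REDD1, also lost its call: WT lithium libraries stood at 1282 to 1658, WT vehicle libraries at 1253 to 1408 in set 2 and 595 to 1144 in set 3. The Ddit4 rise in WT was 0.54 pooled (adjusted p 2.6e-04), and within set 2 the difference was 0.11 (adjusted p 0.69). In HT, Ddit4 ran from 1103 to 1337 in lithium libraries and from 1233 to 1410 in vehicle libraries of set 2. These ranges overlapped, and the difference of -0.10 did not pass (adjusted p 0.71). Asns, asparagine synthetase, rose by 0.13 pooled over both genotypes (adjusted p 0.012) and differed by 0.07 within set 2 (adjusted p 0.58). Asns in WT lithium ran from 2200 to 2816 and in WT vehicle of set 2 from 2121 to 2534.

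**Figure D3:**
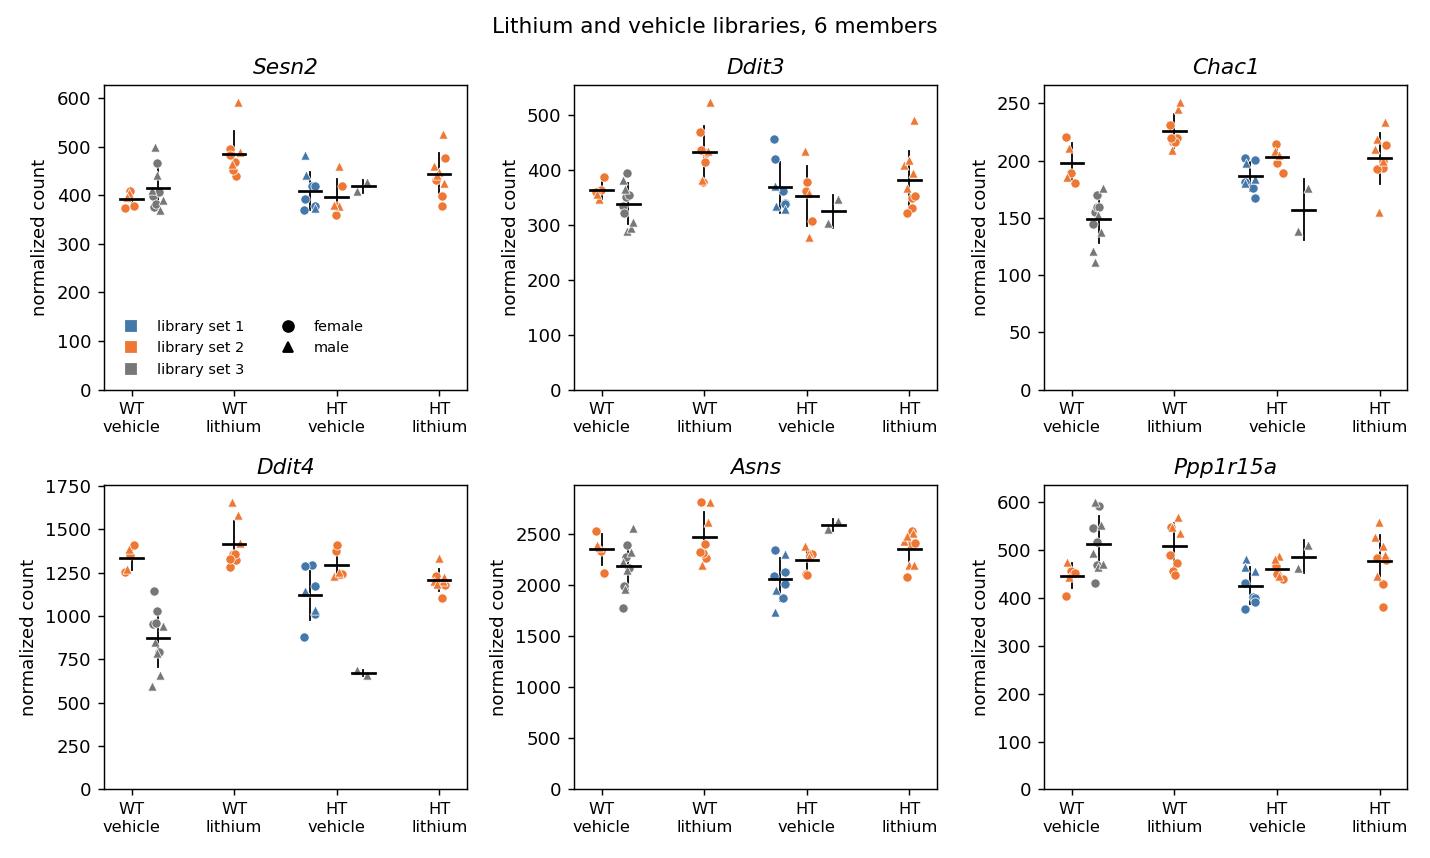
Normalized counts (vertical axes, from 0) of 6 members in lithium and vehicle libraries of each genotype (horizontal axes), coloured by library set, with circles for females and triangles for males; black bars are means and vertical lines SDs. WT vehicle libraries of set 3 lie lower than those of set 2 for Ddit4 (595 to 1144 against 1253 to 1408) and Chac1 (112 to 176 against 181 to 221), while the lithium libraries of Sesn2 in WT lie above all 5 vehicle libraries of set 2.

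In limma the response to lithium did not pass a test of difference between the genotypes for Atf4. The Atf4 difference of effects, HT minus WT, was -0.21 pooled (SE 0.07, limma adjusted p 0.079) and -0.26 within set 2 (SE 0.07, unadjusted p 9.5e-04, adjusted p 0.37). Pooled, 1 member passed, Chac1 at -0.40 (SE 0.12, adjusted p 0.045), where 2.80% of genes were called, 1.65% lower. The other pooled differences ran from -0.42 for Ddit4 (adjusted p 0.11) to 0.08 for Trib3, with Atf5 at -0.25 (adjusted p 0.053). The Chac1 call was lost on leaving out any of 29 libraries (adjusted p up to 0.17) and within set 2, where the difference was -0.22 (adjusted p 0.62). Within set 2 limma called 0 of the 17922 genes for this difference, with 1606 at an unadjusted p under 0.05, and edgeR called no member. In the pooled comparison edgeR called 2 members and DESeq2 called 3, and the share of all genes called by these tools is not given here.

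Under lithium itself, Atf4 was lower in HT than in WT. HT lithium libraries had a mean of 3230 ± 242 normalized counts (SD, n = 9) and WT lithium libraries of 3822 ± 533 (SD, n = 8). The ranges, 2771 to 3662 in HT and 3057 to 4506 in WT, overlapped. All 17 libraries lie in set 2. The log2 difference was -0.26 in both fits, with an SE of 0.06 and a limma adjusted p of 0.0030 when all groups shared the spread (2.51% of genes called, 1.03% lower) and an SE of 0.05 and an adjusted p of 1.9e-04 in the fit by set (4.49% called, 2.34% lower). Leaving out any 1 library kept it between -0.31 and -0.22, and it passed each time. With each sex tested alone the difference kept its sign but did not pass, at -0.24 in females (adjusted p 0.16) and -0.28 in males (adjusted p 0.17), with fewer libraries in each. Within set 2 vehicle libraries the Atf4 difference between genotypes was 0.00 (SE 0.06, unadjusted p 0.96).

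Ddit4 was also lower in HT under lithium in the fit by set. HT lithium libraries ran from 1103 to 1337 and WT lithium libraries from 1282 to 1658, overlapping ranges. The Ddit4 difference was -0.26 (SE 0.08, adjusted p 0.039), but it did not pass when all groups shared the spread (SE 0.13, adjusted p 0.31) or without any of 13 single libraries (adjusted p up to 0.097). Sesn2 (-0.16), Ddit3 (-0.21), Chac1 (-0.18) and Ppp1r15a (-0.13) had negative differences that did not pass. Neither did Asns (-0.07), Atf5 (-0.03), Eif2ak3 (-0.03) or Trib3 (0.53, SE 0.36 pooled). Of 14 glucocorticoid-responsive genes 5 were lower in HT under lithium in the fit by set, where 2.34% of all genes were lower. Among them were Nfkbia (-0.41), Tsc22d3 (-0.39), Sult1a1 (-0.50) and Fkbp5 (-0.37). The summed level of the 14 genes was 22004 to 24553 in HT and 23344 to 29857 in WT lithium libraries. Its part in the Atf4 and Ddit4 differences was not tested.

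**Figure D4:**
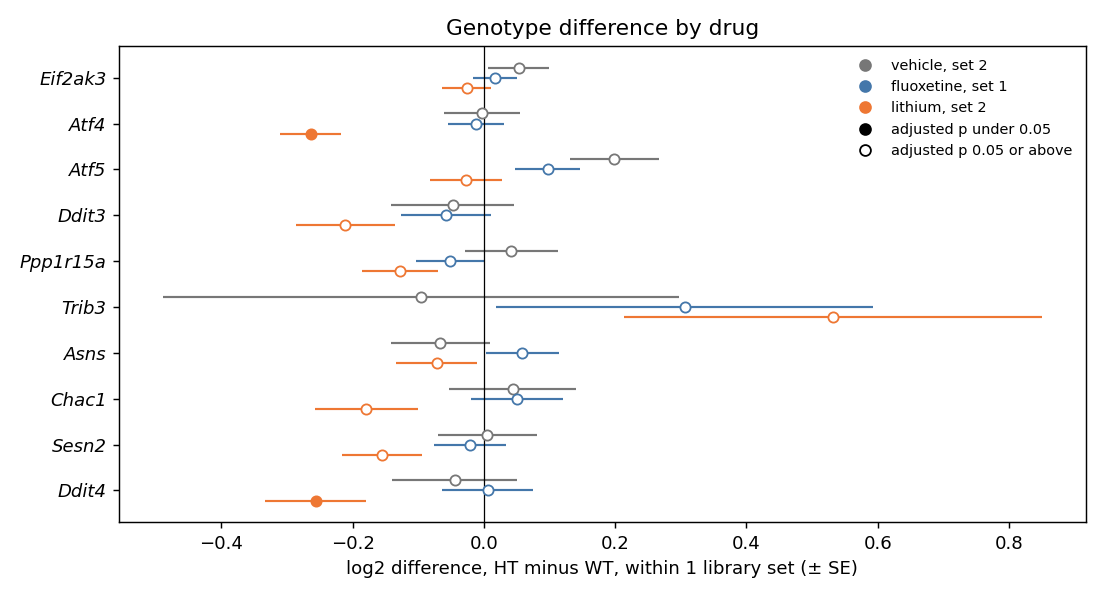
Log2 difference, HT minus WT, with SE (horizontal axis) for the 10 members (vertical axis) under vehicle (grey, set 2), fluoxetine (blue, set 1) and lithium (orange, set 2) in the fit by library set; filled points have a limma adjusted p under 0.05. The filled points are Atf4 and Ddit4 under lithium, both at -0.26.

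Under vehicle the genotype comparison called 3 members when pooled (15.0% of genes called, 7.74% higher and 7.21% lower) and none within set 2 (0.536%). In set 2, 1 member had an unadjusted p under 0.05, against 5.84% of all genes, and edgeR called none. Pooled, Atf5 was higher in HT (0.22, SE 0.04, limma adjusted p 4.2e-04), as was Chac1 (0.22, SE 0.07, adjusted p 0.025). Ppp1r15a was lower (-0.13, SE 0.05, adjusted p 0.034). The other 7 did not pass, with pooled differences of 0.45 for Trib3 (SE 0.26), 0.16 for Ddit4, 0.07 for Eif2ak3 (adjusted p 0.097), 0.04 for Ddit3, -0.01 for Sesn2, -0.03 for Asns and -0.05 for Atf4. Within set 2 Atf5 had a difference of 0.20 (unadjusted p 0.0047, adjusted p 0.33), with 447.6 to 525.8 normalized counts in the 6 HT libraries and 384.6 to 451.7 in the 5 WT libraries. The Chac1 difference there was 0.04 and that of Ppp1r15a 0.04 with the opposite sign to the pooled value. The pooled Chac1 call was also lost without WT vehicle male 3 (adjusted p 0.059) or male 5 (0.064), and that of Ppp1r15a without any of 8 single libraries (adjusted p up to 0.077). Of the 15 WT vehicle libraries 10 are in set 3 and of the 16 HT vehicle libraries 2, so the pooled comparison of genotypes also compares sets.

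Of the 10 members 1 passed under fluoxetine, in WT. In HT no member passed in limma, pooled (1.22% of genes called) or within set 1 (0.167%), and edgeR and DESeq2 called none pooled. At an unadjusted p under 0.05 there were 0 members pooled and 1 within set 1, against 13.7% and 10.8% of all genes. The 1 within set 1 was Asns (0.14, adjusted p 0.38). The HT differences pooled ran from -0.08 for Sesn2 to 0.21 for Trib3 (SE 0.30). In WT 1 member passed, Atf5 (0.17, SE 0.05, adjusted p 0.036), where 5.43% of genes were called, 3.14% higher. At an unadjusted p under 0.05 there were 5 of the 10, against 22.2% of all genes: Atf5, Ddit3 (0.16), Ddit4 (0.22), Chac1 (0.19) and Ppp1r15a (-0.10). The other WT differences were 0.36 for Trib3 (SE 0.30), 0.05 for Eif2ak3, 0.02 for Atf4, -0.06 for Asns and -0.07 for Sesn2. Atf5 stood at 404 to 494 in the 10 WT fluoxetine libraries and 341 to 452 in the 15 WT vehicle libraries. No library set holds both WT fluoxetine and WT vehicle, so the drug and the set cannot be told apart there, and the Atf5 call was lost without any of 9 single libraries (adjusted p up to 0.079). Between genotypes under fluoxetine no member passed, where 1.98% of genes were called pooled and 2.85% within set 1. No member had an unadjusted p under 0.05 in either, against 12.6% and 15.5% of all genes. The differences ran from -0.06 for Ddit3 to 0.31 for Trib3 (SE 0.33 pooled), with Atf5 at 0.10, and the rest within 0.06 of 0. Atf4 stood at 2882 to 3572 in HT and 2973 to 3455 in WT fluoxetine libraries.

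The lithium effect did not pass a test of difference between the sexes for any member. limma called 0 of 17922 genes, with 1554 at an unadjusted p under 0.05, and edgeR and DESeq2 called no member. Within set 2 no member had an unadjusted p under 0.05, against 4.07% of all genes. In the pooled fit the 4 members under that unadjusted level were Atf4 (-0.15), Atf5 (-0.17), Ddit3 (-0.28) and Ddit4 (-0.41), female minus male. In females alone the pooled comparison over both genotypes called no member, and the Atf4 difference was 0.12 (adjusted p 0.14).

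Of the other genes of the pathway, Ppp1r15b and Dnajc3 rose with lithium within set 2. The list counts are to be read against all genes tested, of which 35.9% were called pooled and 1.80% within set 2, and 13.7% had an unadjusted p under 0.05 within set 2. Among 18 tested genes for eIF2 kinases, eIF2 subunits and their regulators, 8 rose and 2 fell with lithium pooled over both genotypes, and 2 rose within set 2. These 2 were Ppp1r15b (0.12, adjusted p 0.010), the constitutive phosphatase partner for eIF2, and Dnajc3 (0.14, adjusted p 0.021), which encodes a chaperone that inhibits PERK. Of 13 genes listed as ATF4 targets for aminoacyl-tRNA synthetases and a tRNA exporter, 10 rose pooled and none passed in limma within set 2, where 4 had an unadjusted p under 0.05 and 11 were higher with a median log2 difference of 0.04. Of 12 enzymes of serine, one-carbon and proline synthesis 7 rose and 1 fell pooled, and none passed within set 2, where 6 had an unadjusted p under 0.05. Of 10 amino acid transporters 6 rose and 1 fell pooled, and of 20 other targets and partners 5 rose and 4 fell. None of either list passed within set 2, where 3 of the 10 and 7 of the 20 had an unadjusted p under 0.05.

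The neighbouring branch of the unfolded protein response, run by ATF6 and XBP1, gave 13 higher and 1 lower of 20 genes pooled. Within set 2 3 of the 20 rose: Hspa5 (0.21, adjusted p 0.017), the main chaperone of the endoplasmic reticulum, Canx (0.10, adjusted p 0.021), a lectin chaperone, and Dnajb11 (0.11, adjusted p 0.030), a co-chaperone. In all 19 of the 20 were higher, with a median of 0.09, and 11 had an unadjusted p under 0.05. Of 14 immediate early genes 14 were higher within set 2 (median 0.26) and 7 had an unadjusted p under 0.05. Of these, 2 passed, Egr1 (0.43, adjusted p 0.028) and Egr2 (0.92, adjusted p 0.043). Pooled, however, the median of the 14 was -0.16 and 1 fell, Nr4a1. The proline synthesis gene Pycr1 was lower in HT than in WT under fluoxetine (-0.50, adjusted p 0.0025 pooled) and under lithium (-0.43, adjusted p 0.030 pooled), and both passed in the fit by set (0.0015 and 0.019). Impact, which encodes an inhibitor of the kinase GCN2, was higher in HT under lithium (0.17, adjusted p 0.037 pooled and 0.017 by set). Eif2b5, of the same list of eIF2 kinases, subunits and regulators, was lower there in the fit by set (-0.13, limma adjusted p 0.0092). In the fit by set Cth, which encodes a cysteine-producing enzyme, was also lower in HT under both drugs. The Cth difference was -0.28 under fluoxetine (limma adjusted p 0.048) and -0.32 under lithium (adjusted p 0.030). Mthfd1l, of the same enzyme list, went the other way under fluoxetine in that fit (0.25, adjusted p 0.0097). Aldh1l2 (-0.32, adjusted p 0.039) and Aldh18a1 (-0.15, adjusted p 0.042) were lower in HT there. Genes of the transporter list and of the other targets and partners were higher in HT under fluoxetine in that fit. They were Slc7a3 (0.36, limma adjusted p 0.036), Jdp2 (0.22, adjusted p 0.026) and Pmaip1 (0.46, adjusted p 0.038).

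Across the 68 libraries the members were weakly correlated with each other once group means and set means were removed. Pearson's r over the 45 pairs ran from -0.30 to 0.53 with a median of 0.05. The highest was Atf5 with Ddit4 (0.53), followed by Chac1 with Asns (0.45) and Atf4 with Asns (0.40). These values describe 68 libraries that share dissection, depth and normalization. The genes most like a member depended on whether set means were removed along with group means. For Atf4 they were Ndufc2 (0.71), Usmg5 (0.70) and Nop56 (0.70) with group means alone removed, and Mlx (0.63), Mc4r (0.62) and Glrx (0.61) with both removed. For Ppp1r15a they were Btg2 (0.66), Dusp1 (0.65) and Junb (0.64), and then Junb (0.69), Egr2 (0.66) and Fos (0.66), which are immediate early genes. For Asns they were Pcmt1 (0.86), Acsl5 (0.85) and Pcsk2 (0.85), and then Atp6v1b2 (0.87), Acsl5 (0.85) and Atp6v1e1 (0.85). For Ddit4 they were Snrpb (0.85), Eif4h (0.82) and Slc35c2 (0.81), and then Smox (0.60), Nfkbia (0.59) and Slc25a29 (0.58). For Atf5 they were Rpl18 (0.74), Ercc2 (0.73) and Pkig (0.73), and then Tmem258 (0.70), Tmsb10 (0.68) and Ndufa6 (0.68). The same 3 genes led both ways for Chac1, namely Syngr3, Slc6a7 and Tubb4b (0.79, 0.79 and 0.78 with group means alone removed), and for Ddit3, namely Banp (0.63), Creld2 (0.56) and Sap30bp (0.54). Eps15l1 (0.55) and Meis3 (0.55) led both ways for Sesn2, followed by Nckap5l (0.53) and, with set means removed, by Anks1 (0.54). Tbc1d9 (0.70) and Ambra1 (0.64) led both ways for Eif2ak3, followed by Snrnp200 (0.63) and, with set means removed, by Thsd7b (0.54).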

How the data were processed

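Polyadenylated RNA was sequenced from stranded libraries, per the labels' protocols. The authors deposited 1 table whose signal values are read counts divided by 1 size factor per library, a reading taken from the values: whole reads were recovered in every library (lowest share of values whole within 0.01, 100%). In 8 of the 68 columns the step lay close to 1 and showed only in higher values. Per the submitters' processing notes, the tools were Salmon 0.11.2, R 3.6.0 and DESeq2 1.19.11 and the build GRCm38. The sources used here do not give the annotation release or whether reads were counted by strand.

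Tests used limma 3.58.1 (R 4.3.3, trend and robust) on log2(value + 1), so fold changes understate those of low genes. All 12 groups entered 1 fit, sexes weighed equally, a gene mean of 5 or more was required (17922 genes tested), and p-values were adjusted by Benjamini-Hochberg over all of them with a threshold of 0.05. A second fit gave each group a mean per library set. Sets came from average linkage on 1 minus Pearson's r of 361 pseudogenes, with the number fixed at 3. edgeR 4.0.16 and DESeq2 1.42.0 were run on the recovered reads. The test code was tested on simulated data. Replicates are labelled as separate samples, and p-values measure the spread between them. The drug came through the mother's milk, so pups of the same dam would share it. No dam or litter was among the sample labels used, and the tests treated all libraries as independent. If littermates are among them, the p-values are too small by an unknown amount. Symbols came from GENCODE vM21 (18077 matched), and sequences from RefSeq on GRCm38.p6.

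The rule for named genes took every member, up to 4 genes of each pathway list with the smallest p among those that passed and, for members with a mean above 100, the 3 genes most correlated over the libraries. Pathway genes are named for lithium within set 2 and for some genotype differences, and counted only in the pooled lithium comparison. Cth under fluoxetine was named beyond the 4 of its list. Some members are given by their range. The members and lists were chosen with earlier results of these data known. Alternatives covered pseudocount, low-value filter, scaling, tool, library set, replicate block, each sex alone and each library left out.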

Additional observations from a re-analysis of the deposited data

Results flagged for a closer look

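Each member was examined in each group of 4 or more libraries, 110 cases, for a single library far from the others. Of these 110 cases 8 held one, and chance alone gives about 1 in 20. The same libraries recur in the cases of every member. Atf4 stood at 3406 normalized counts in HT vehicle female 4, with the other 7 females at 2747 to 2975. Sesn2 stood at 466.4 in WT vehicle female 4 (others 372.9 to 408.0) and at 325 in HT fluoxetine male 3 (others 391 to 415). In HT lithium male 3, Ddit4 stood at 1337 (others 1186 to 1228) and Trib3 at 13.2 (others 7.82 to 8.67). Chac1 stood at 138 in HT vehicle male 2, a library of set 3, with the other males at 176 to 209. In WT lithium females, Chac1 stood at 231 in female 4 (others 216 to 220) and Asns at 2816 in female 5 (others 2271 to 2409). Female 5 also had the highest Atf4 and the highest choroid plexus and meningeal sum of the lithium libraries.

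The lithium effect on Chac1 differed between the genotypes in the pooled comparison, by -0.40 on the log2 scale (HT minus WT, limma adjusted p 0.045). Within set 2 this Chac1 value was -0.22, short of the threshold (adjusted p 0.62).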

How the results depend on the processing

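Counts of members called are given here against the values of the report. The number of all genes called can move with the setting as well, so a changed count is not by itself a result about the members. Restricting to vehicle libraries of the same set moved the lithium count from 7 to 2 over both genotypes and from 8 to 2 in WT, the genotype count from 3 to 0 under vehicle, and the count for the difference of lithium effects between genotypes from 1 to 0. The genotype count under lithium, which uses no vehicle library, went from 1 to 2 in the fit by set, where the log2 differences were the same and the SE of Ddit4 went from 0.13 to 0.08. The count for the difference of lithium effects was 2 with a mean of at least 50, TMM scaling or edgeR. It was 3 with DESeq2 and 0 in either sex alone. With females alone the lithium counts were 0 over both genotypes and 2 in WT, the fluoxetine count in WT 0, and the genotype counts 1 under vehicle and 0 under lithium. With males alone the fluoxetine count in WT and both genotype counts were 0. Each sex alone has fewer libraries.

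Within sets the sign reversed for Atf5 (-0.011) and Trib3 (-0.29) under lithium over both genotypes and for Ppp1r15a between genotypes under vehicle (0.041), and in females alone for Atf5 (-0.034), none of them past the threshold. Pseudocounts of 0.5 or 5 and the absence of a filter on low values moved no count by over 1.5 times.

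Leaving out 1 library gave 6 to 8 members for lithium over both genotypes, 7 to 8 in WT, 0 to 3 for the difference between genotypes, 0 to 2 for fluoxetine in WT, and 1 to 4 for genotype under vehicle. Of all 17922 genes, 5592 to 7165, 4962 to 7340, 0 to 1492, 338 to 1969 and 1730 to 4153 were called, in the same order. Within sets the ranges were 2 to 3 over both genotypes, 1 to 2 in WT and 1 to 2 for genotype under lithium. There, 159 to 514, 16 to 302 and 249 to 1103 of all genes were called. With 1 library left out within sets, differences near 0 changed sign: over both genotypes Atf5 ran from -0.033 to 0.011 (turned at 0.010, 0.0020, 0.00032 and 0.011) and Ddit4 from -0.013 to 0.019 (turned at -0.0027, -0.0043, -0.010, -0.00069, -0.0089, -0.0085 and -0.013), and Chac1 from -0.0011 to 0.089 between genotypes under vehicle.

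Libraries with the same replicate number in different groups did not deviate together (mean correlation 0.0045 over 313 pairs), and no label says that a number is shared between groups. A replicate block moved the count from 0 to 2 for lithium in HT, from 1 to 4 for the difference between genotypes and from 1 to 4 for fluoxetine in WT. The share of all genes called with the block is not given here, so these counts have no background beside them. In vehicle groups the replicate numbers follow the library sets.

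Trib3, at a mean of 8.26 normalized counts, is limited by depth, and a mean of at least 50 removed it from the test.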
